A study of Mus musculus with 10 samples.

Results

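The small leucine-rich proteoglycans are secreted proteins of the extracellular matrix with a core of leucine-rich repeats. Most carry chondroitin, dermatan or keratan sulfate chains, and several bind fibrillar collagens and set how fibrils assemble and how thick they become. Some also bind growth factors of the TGF-beta family or receptors at the cell surface, and in the uterus decorin, biglycan and lumican are matrix components of the endometrial stroma and the myometrium. The genes described here are 9 members expressed in connective tissue, taken from the 29268 genes of the uterine RNA-seq table by their gene name. They are decorin (*Dcn*), biglycan (*Bgn*) and asporin (*Aspn*) of class I, lumican (*Lum*), fibromodulin (*Fmod*), *Prelp* and osteomodulin (*Omd*) of class II, osteoglycin (*Ogn*) of class III, and podocan (*Podn*) of class V. All 9 were listed in the table and all 9 passed the filter on low counts, so none was lost before testing.

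Uterus samples came from 5 HSD17B1TG and 5 WT female mice, all aged 4 months and of the FVB/N background, with 1 library per mouse. HSD17B1TG mice were heterozygous for a human HSD17B1 cDNA behind a CMV-enhanced chicken beta-actin promoter, which drives expression in nearly all tissues, so that estrone can be turned into estradiol throughout the body. The study states that HSD17B1TG females do not cycle and that WT uteri for histology were collected at random phases of the cycle, so genotype and cycle phase cannot be told apart here. The comparison asks how the matrix of the uterus differs between the genotypes at an age that the study treats as preceding adenomyosis. The transgenic mice are called TG1 to TG5 and the wild-type mice WT1 to WT5, following their animal numbers.

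The libraries held 14817228 to 23271988 counts on genes, and mitochondrial genes took 1.94% to 7.57% of the counts in HSD17B1TG and 2.58% to 3.37% in WT. The transgene is a human sequence and was not counted, and mouse *Hsd17b1* lay between 0.754 and 1.32 FPKM in HSD17B1TG and between 0.456 and 1.42 FPKM in WT, so these counts do not check the genotype labels. FPKM are fragments scaled to transcript length and sequencing depth, and they allow levels to be compared between genes. Genotypes were compared with edgeR's quasi-likelihood test on the raw counts, with p-values adjusted by the Benjamini-Hochberg method over 16993 genes. A gene was called changed where the adjusted p was under 0.05, the levels differed more than 2-fold and the mean of at least 1 group exceeded 1 FPKM. Values after ± are SD over the 5 mice of a group throughout. By this rule 367 genes were called up and 354 down in HSD17B1TG, which is 4.24% of the genes tested.

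None of the 9 proteoglycan genes was called in edgeR, against the 4.24% of all genes. DESeq2, which the study used with the same thresholds, and limma's voom each called 1, *Aspn*, against 7.24% and 10.3% of the genes tested. At an unadjusted p under 0.05 there were 3 of the 9, *Aspn* and *Podn* with higher and *Bgn* with lower counts in HSD17B1TG, against 26.1% of all genes tested. The FPKM of HSD17B1TG and WT mice overlapped for every member, so that 0 of 9 were separated, against 6.69% of all genes. The fold changes nevertheless spanned a wide range, from 4.10-fold higher for *Aspn* to 2.22-fold lower for *Fmod*, and each had a wide interval.

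Of the promoters, 7 of the 9 members were matched in RefSeq (GRCm38.p6), with 8 windows, each reaching from 250 bases before to 50 bases after a transcription start. The windows of the 3 members with an unadjusted p under 0.05 are printed from the strand of the gene, since their base composition spans the range seen among the members. Capitals mark every match to 6 motifs, namely TATAAA (the TATA box) on the strand of the gene, and on either strand CCAAT (the CCAAT box), GGGCGG (the GC box), GGTCA (1 arm of an estrogen response element), AGAACA (1 arm of the element shared by progesterone, androgen and glucocorticoid receptors) and TGACTCA (the AP-1 site).
*Aspn*, chr13:49544193-49544492, plus strand: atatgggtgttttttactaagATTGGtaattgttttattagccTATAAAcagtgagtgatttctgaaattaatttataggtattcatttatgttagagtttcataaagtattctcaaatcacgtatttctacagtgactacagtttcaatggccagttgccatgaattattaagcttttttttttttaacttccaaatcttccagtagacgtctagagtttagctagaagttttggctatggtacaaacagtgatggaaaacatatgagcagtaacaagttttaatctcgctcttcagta
*Podn*, chr4:108031905-108032204, minus strand, the more upstream of its windows: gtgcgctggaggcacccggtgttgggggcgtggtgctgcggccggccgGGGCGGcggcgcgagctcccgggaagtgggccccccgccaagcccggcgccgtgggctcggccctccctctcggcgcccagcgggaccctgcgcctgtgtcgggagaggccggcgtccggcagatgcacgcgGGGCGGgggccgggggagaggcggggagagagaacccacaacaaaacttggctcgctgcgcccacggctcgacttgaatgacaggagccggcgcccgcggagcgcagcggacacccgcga
*Bgn*, chrX:73483351-73483650, plus strand: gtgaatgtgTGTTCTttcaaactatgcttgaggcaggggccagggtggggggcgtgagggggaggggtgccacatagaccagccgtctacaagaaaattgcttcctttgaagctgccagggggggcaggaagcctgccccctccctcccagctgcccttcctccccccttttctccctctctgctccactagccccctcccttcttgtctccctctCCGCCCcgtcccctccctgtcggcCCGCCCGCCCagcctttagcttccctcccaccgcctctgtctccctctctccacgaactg

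The *Aspn* window held 31.0% G and C and 3 CpG dinucleotides, that of *Podn* 77.0% and 41, and that of *Bgn* 63.7% and 9. Over all 32851 windows the medians were 52.7% and 7. In the *Aspn* window TATAAA stood at position -207, counted from 0 at the start, and CCAAT at -229 on the other strand. The *Podn* window held GGGCGG at -202 and -70, and the *Bgn* window held it on the other strand at -34, -10 and -6, where the last 2 matches overlap, with AGAACA at -241 on the other strand. Among the 8 windows of the members, TATAAA was found in 2 (8.32% of all windows), CCAAT in 3 (37.4%), GGGCGG in 2 (35.7%), GGTCA in 3 (40.5%), AGAACA in 1 (19.0%) and TGACTCA in 0 (5.20%). The full element, GGTCA and TGACC with any 3 bases between them, was found in 0 of the 8 and in 0.0700% of all windows. These matches describe letters in a short window and say nothing of what binds there.

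The members lie in clusters on the mouse genome (GRCm38). *Aspn* (ENSMUSG00000021388, chromosome 13 from 49544443 to 49567565), *Omd* (ENSMUSG00000048368, 49582462 to 49592822) and *Ogn* (ENSMUSG00000021390, 49608046 to 49624501) follow each other on the plus strand, with gaps of 14896 and 15223 bases. *Dcn* (ENSMUSG00000019929, chromosome 10 from 97479609 to 97518143) and *Lum* (ENSMUSG00000036446, 97565128 to 97572703) lie 46984 bases apart on the plus strand. *Prelp* (ENSMUSG00000041577, chromosome 1 from 133910304 to 133921414, minus strand) and *Fmod* (ENSMUSG00000041559, 134037254 to 134048277, plus strand) lie 115839 bases apart. *Bgn* (ENSMUSG00000031375, chromosome X from 73483602 to 73495933, plus strand) and *Podn* (ENSMUSG00000028600, chromosome 4 from 108014791 to 108096445, minus strand) have no other member beside them.

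Some of these genes share ground with others, and whether reads were counted by strand is not given in the sources used here. *Aspn*, *Omd* and *Ogn* lie inside *Cenpp*, a centromere protein gene on the other strand, which had 1.32 ± 1.04 FPKM in HSD17B1TG and 1.01 ± 0.413 in WT. That is far below *Aspn* and *Ogn* but above *Omd*. *Podn* overlaps *Scp2*, a sterol carrier gene on the same strand with 43.7 ± 3.29 FPKM in HSD17B1TG and 38.2 ± 3.30 in WT. The overlap begins at base 108043839, upstream of the *Podn* window printed above, so reads of *Podn* in that stretch cannot be told apart from those of *Scp2*. On the other strand, *Prelp* overlaps the antisense gene *Gm15851* and *Podn* the microRNA gene *Mir6397*, each with at most 3 counts in a mouse. *Podn* also overlaps *Gm23354*, a small nuclear RNA gene on the same strand, whose level is not given here.

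Asporin, a class I protein that binds collagen and TGF-beta, had the largest positive fold change of the 9. *Aspn* had 144.3, 32.6, 32.3, 150.8 and 39.1 FPKM in TG1 to TG5 and 17.1, 8.25, 2.84, 55.9 and 13.5 FPKM in WT1 to WT5. TG1 and TG4 lay above every WT mouse, the other 3 HSD17B1TG mice lay above all WT mice but WT4, and the groups overlapped through WT4 alone. The means were 79.8 ± 61.9 FPKM in HSD17B1TG and 19.5 ± 21.0 in WT. The log2 fold change was 2.04 (SE 0.76, 95% interval 0.35 to 3.72, adjusted p = 0.124 in edgeR), and a two-sided exact permutation test on log2 CPM gave p = 0.0317. *Aspn* was called by DESeq2 (adjusted p = 0.0339), in which 7.24% of the genes tested were called, and by limma's voom with sample quality weights (adjusted p = 0.0370), in which 10.3% were called. Without WT4 edgeR called it as well, with a log2 fold change of 2.93 and an adjusted p of 0.0241, where 8.87% of all genes were called.

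Podocan, a class V protein of low abundance that was first described in glomerular and vascular matrix, came next. *Podn* had 5.16, 2.91, 0.747, 3.88 and 1.52 FPKM in TG1 to TG5 and 0.772, 0.678, 0.145, 2.06 and 0.915 FPKM in WT1 to WT5. TG1, TG2 and TG4 lay above every WT mouse, while TG3 and TG5 lay within the WT range, and WT3 rested on 10 counts. This was a log2 fold change of 1.63 (SE 0.65, 95% interval 0.21 to 3.06, adjusted p = 0.140 in edgeR), with p = 0.0635 in the exact permutation test. On the log2(FPKM + 1) scale, which understates changes of low genes, it was 0.94.

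PRELP, a class II protein that anchors basement membranes to the underlying collagen, also had higher levels in some HSD17B1TG mice. *Prelp* had 36.5, 11.2, 6.09, 45.3 and 9.83 FPKM in TG1 to TG5 and 6.60, 2.40, 2.76, 15.2 and 12.7 FPKM in WT1 to WT5. Only TG1 and TG4 exceeded the WT range, and the other 3 lay inside it. In edgeR the log2 fold change was 1.46 (SE 0.67, 95% interval -0.03 to 2.94, adjusted p = 0.199 in edgeR). It was 1.00 without TG4.

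Biglycan, a class I protein that carries chondroitin or dermatan sulfate chains, binds TGF-beta and, once released from the matrix, signals through toll-like receptors, had the negative fold change with the smallest p. *Bgn* had 46.4, 27.8, 12.03, 37.5 and 13.2 FPKM in TG1 to TG5 and 29.7, 36.4, 58.8, 46.1 and 105.0 FPKM in WT1 to WT5. TG2, TG3 and TG5 lay below every WT mouse, whereas TG1 and TG4 lay inside the WT range. The means were 27.4 ± 15.0 FPKM in HSD17B1TG and 55.2 ± 29.9 in WT. The log2 fold change was -1.02 (SE 0.45, 95% interval -2.004 to -0.03, adjusted p = 0.180 in edgeR), with p = 0.0794 in the exact permutation test. Without WT5 it was -0.67 and without TG1 -1.29.

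Fibromodulin, a class II protein that carries keratan sulfate and acts in collagen fibril maturation, was low throughout. *Fmod* had 2.04, 1.93, 0.675, 3.68 and 0.700 FPKM in TG1 to TG5 and 1.38, 1.16, 10.2, 1.92 and 5.29 FPKM in WT1 to WT5. WT3 and WT5 stood above all other mice and TG3 and TG5 below all others, with the remaining mice of both groups mixed between them. Its log2 fold change was -1.15 (SE 0.69, 95% interval -2.67 to 0.37, adjusted p = 0.319 in edgeR). Without WT3 it was -0.46, and with all mice it was -0.63 in limma on log2(FPKM + 1) and -0.64 in voom.

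The 3 most abundant members had fold changes whose intervals included 0. Decorin binds collagen fibrils and TGF-beta and dampens several receptor tyrosine kinases. *Dcn* had 366, 193, 86.4, 356 and 131 FPKM in TG1 to TG5 and 292, 115, 141, 319 and 344 FPKM in WT1 to WT5. Both the highest and the lowest level were in HSD17B1TG mice, and the log2 fold change was -0.10 (SE 0.45, adjusted p = 0.915 in edgeR), with a 95% interval from -1.09 to 0.90, which is 0.469-fold to 1.86-fold.

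Lumican, the main keratan sulfate proteoglycan of class II in soft tissue, regulates fibril spacing. *Lum* had 598, 173, 113, 314 and 134 FPKM in TG1 to TG5 and 172, 174, 105, 291 and 195 FPKM in WT1 to WT5. TG1 stood far above the rest, and the medians of the groups were nearly the same. The log2 fold change was 0.51 (SE 0.45, 95% interval -0.50 to 1.51, adjusted p = 0.518 in edgeR), and without TG1 it was -0.03.

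Osteoglycin, also called mimecan, is a class III protein of collagenous matrix. *Ogn* had 378, 142, 94.9, 250 and 82.9 FPKM in TG1 to TG5 and 110, 74.3, 46.4, 235 and 68.1 FPKM in WT1 to WT5. TG1 and TG4 again lay above every WT mouse. Its log2 fold change was 0.83 (SE 0.52, 95% interval -0.31 to 1.97, adjusted p = 0.340 in edgeR), with 0.42 without TG1 and 1.34 without WT4 (adjusted p = 0.0861).

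Osteomodulin, a keratan sulfate proteoglycan best known from bone and tooth, had the lowest counts of the 9. *Omd* had 1.17, 0.307, 0.520, 0.662 and 0.514 FPKM in TG1 to TG5 and 1.27, 0.632, 0.193, 1.10 and 0.130 FPKM in WT1 to WT5. These values rested on 6 to 70 counts per mouse, and the log2 fold change was -0.07 (SE 0.61, 95% interval -1.42 to 1.28, adjusted p = 0.954 in edgeR).

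**Figure D1:**
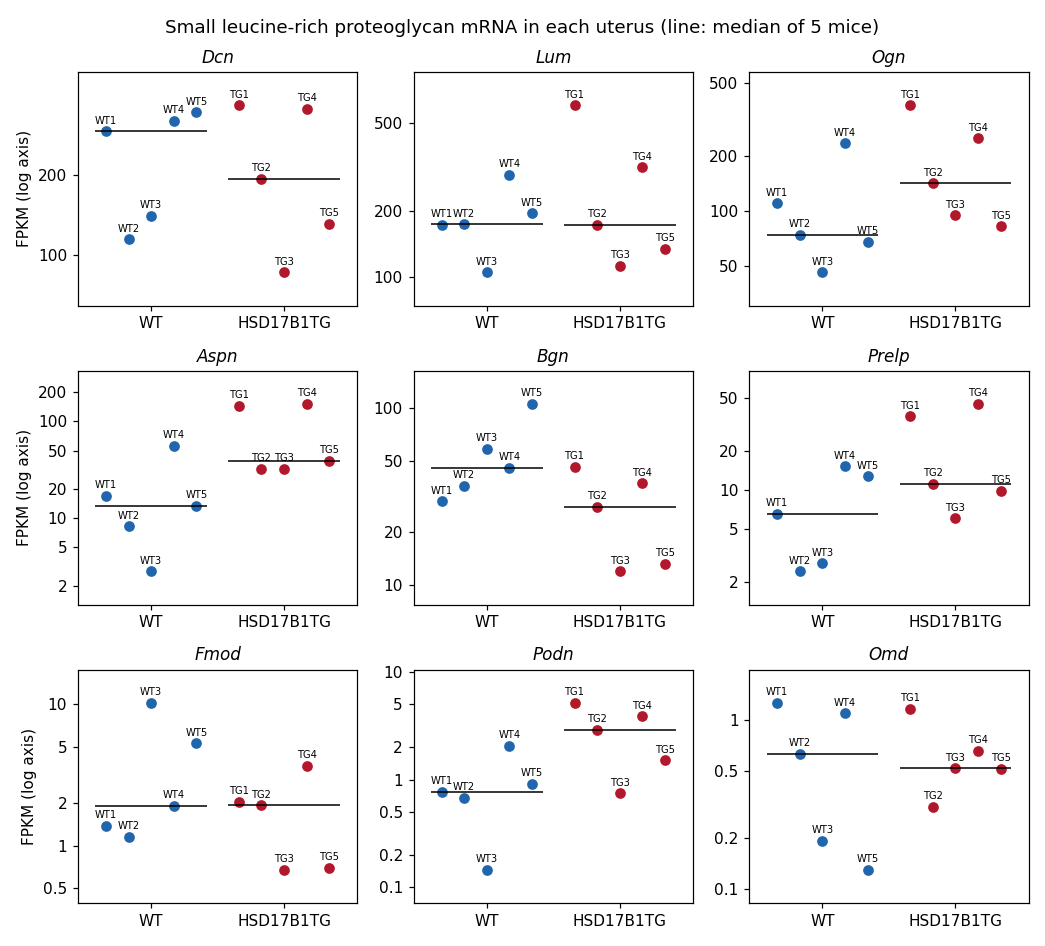
FPKM (log axis) of each of the 9 genes in every mouse, with WT in blue, HSD17B1TG in red and a line at the median of each group. The groups overlap in every panel, and TG1 and TG4 are the 2 highest HSD17B1TG mice in all 9.

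By class, the fold changes had both signs. In class I, *Aspn* lay on the positive side, *Bgn* on the negative side and *Dcn* near 0. In class II, *Prelp* had a positive and *Fmod* a negative fold change, while the signs of *Lum* and *Omd* turned in some fits with a mouse left out. In all, 5 of the 9 log2 fold changes were positive and 4 negative, with a median of 0.51, against 8525 positive and 8468 negative with a median of 0.00 over all genes tested.

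**Figure D2:**
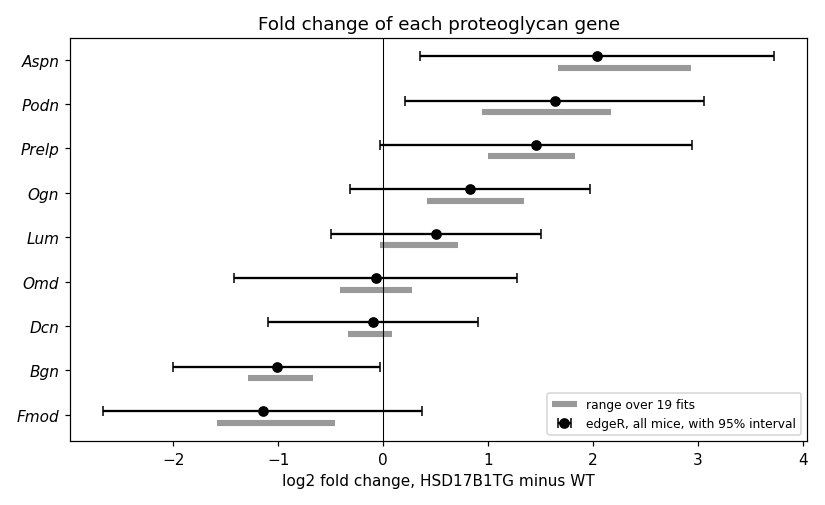
Log2 fold change, HSD17B1TG minus WT, of each gene in edgeR with its 95% interval (black), above the range over the 19 fits tried (grey). The intervals of *Aspn*, *Podn* and *Bgn* exclude 0, and the ranges of *Lum*, *Omd* and *Dcn* include both signs.

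The same mice carried the high values of most members. TG1 and TG4 were the 2 highest HSD17B1TG mice for all 9 genes, and TG3 was the lowest for 7. Among WT mice, WT4 was the highest for 5, namely *Lum*, *Ogn*, *Prelp*, *Aspn* and *Podn*, whereas *Bgn* and *Dcn* were highest in WT5 and *Fmod* in WT3. WT3 was the lowest for *Lum*, *Ogn*, *Aspn* and *Podn*, so that within WT *Fmod* and these 4 genes placed WT3 at opposite ends.

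The spread within a group was larger for every member than for the median gene of these libraries. Over the 16296 tested genes above 0 in all mice, the highest mouse of a group exceeded the lowest by a median of 2.09-fold in HSD17B1TG and 1.85-fold in WT. For the members this ratio lay between 3.81 for *Omd* and 7.44 for *Prelp* in HSD17B1TG. In WT it lay between 2.76 for *Lum* and 19.6 for *Aspn*, with 14.2 for *Podn*.

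After each mouse was set relative to the mean of its own group, 6 of the members moved together across the 10 mice. Against the mean of the other 8 members, on log2 CPM, Pearson's r was 0.93 for *Lum*, 0.93 for *Prelp*, 0.91 for *Dcn*, 0.89 for *Ogn*, 0.85 for *Aspn* and 0.84 for *Podn*. It was 0.57 for *Bgn*, 0.31 for *Omd* and 0.18 for *Fmod*. The closest pair was *Dcn* and *Prelp* with r = 0.96, and *Bgn* and *Fmod*, both with negative fold changes, had r = 0.81 with each other. These correlations describe 10 mice that share their libraries and tissue make-up between genes, and no p is given for them.

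The genes outside the family whose levels were most like the mean of the 9, by the same measure over the 10 mice, were *Flt4*, *Fnbp1*, *Jmy*, *Aebp1* and *Rbpms*, with r from 0.978 to 0.981. *Flt4* is the VEGF receptor of lymphatic endothelium. *Aebp1* encodes a collagen-binding protein of the matrix, and *Rbpms* an RNA-binding protein of smooth muscle. *Flt4* had 5.11 ± 3.32 FPKM in HSD17B1TG and 1.64 ± 0.602 in WT (adjusted p = 0.0529 in edgeR), and *Aebp1* had 225.3 ± 133 and 185.7 ± 67.8 (adjusted p = 0.716).

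The order of the levels was led by the same 3 genes in both genotypes. In WT the order of the mean FPKM was *Dcn*, *Lum*, *Ogn*, *Bgn*, *Aspn*, *Prelp*, *Fmod*, *Podn* and *Omd*. In HSD17B1TG it was *Lum*, *Dcn*, *Ogn*, *Aspn*, *Bgn*, *Prelp*, *Podn*, *Fmod* and *Omd*. *Bgn* exceeded *Aspn* in 4 of 5 WT mice, and *Aspn* exceeded *Bgn* in 5 of 5 HSD17B1TG mice. *Fmod* exceeded *Podn* in 4 of 5 WT mice, and *Podn* exceeded *Fmod* in 5 of 5 HSD17B1TG mice. The ranges of neighbours in the order overlapped throughout, except for *Prelp* and *Podn* in HSD17B1TG. Within mice, 5 of the 8 pairs of neighbours in HSD17B1TG and 2 of the 8 in WT stood in this order in 5 of 5 mice.

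The summed FPKM of the 9 genes did not separate the genotypes. It was 347 to 1578 in HSD17B1TG with a median of 584, and 368 to 967 in WT with a median of 632. *Lum*, *Dcn* and *Ogn* together made up 79.2% to 86.9% of the sum in HSD17B1TG and 79.6% to 91.0% in WT.

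Each gene was also expressed as a share of that sum. *Prelp* took 1.76% to 3.89% of it in HSD17B1TG and 0.583% to 1.71% in WT, and *Podn* 0.215% to 0.497% against 0.0395% to 0.213%, so the groups did not overlap for either. They overlapped for the other 7. The same measure was without overlap for 1.54% of all genes tested, against 6.69% for FPKM alone. The members are part of the sum and most moved together, which need not hold for other genes. The 1.54% is therefore not a like comparison, and no conclusion is drawn from it. *Aspn* took 5.58% to 12.97% against 0.773% to 5.77%, with 4 of 5 HSD17B1TG mice above every WT mouse. *Bgn* took 2.94% to 4.75% against 4.70% to 16.0%, with 4 of 5 HSD17B1TG mice below every WT mouse. Shares of a sum are bound to each other, and these are a description.

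**Figure D3:**
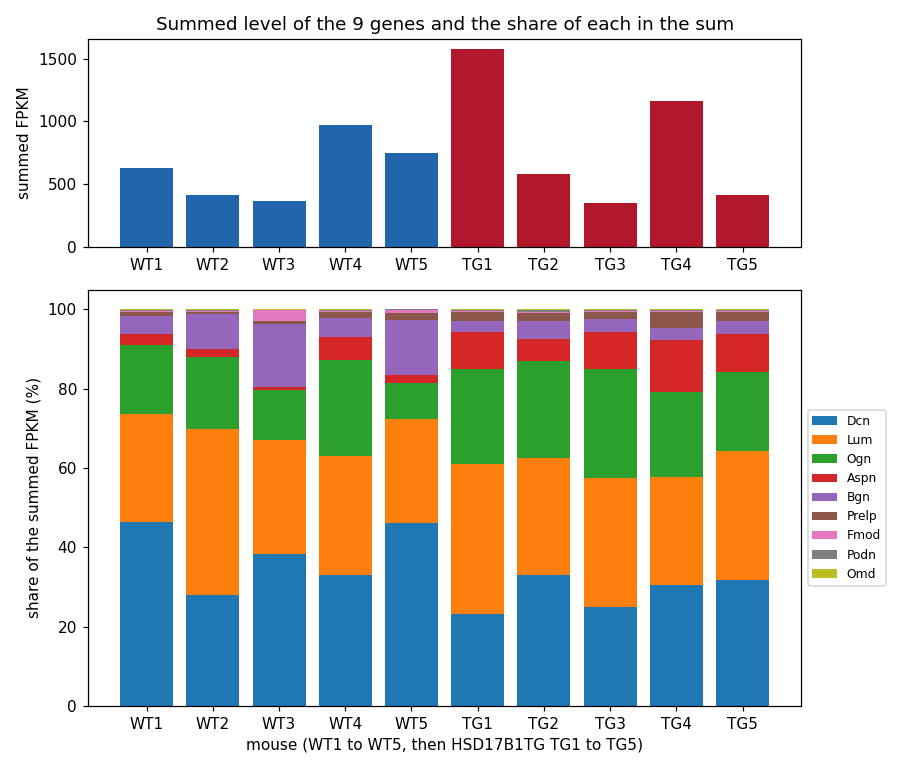
Summed FPKM of the 9 genes in each mouse (top) and the share of each gene in that sum in percent (bottom), WT1 to WT5 and then TG1 to TG5. The *Aspn* share is 5.58% to 12.97% in HSD17B1TG mice and 0.773% to 5.77% in WT mice, and the *Bgn* share is 2.94% to 4.75% and 4.70% to 16.0%.

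Ratios of members within a mouse leave out what moves all of them alike. Of the 36 pairs of members, 5 had ratios that did not overlap between the groups, against 7.54% of all pairs of genes tested. They were *Podn* to *Dcn*, *Podn* to *Bgn*, *Prelp* to *Dcn*, *Prelp* to *Bgn* and *Ogn* to *Bgn*, and since they share members they are not 5 separate results. The FPKM ratio of *Prelp* to *Bgn* was 0.403 to 1.21 in HSD17B1TG and 0.0470 to 0.329 in WT. That of *Prelp* to *Dcn* was 0.0579 to 0.127 in HSD17B1TG and 0.0196 to 0.0475 in WT. For *Ogn* to *Bgn* the groups only just parted, at 5.105 in the lowest HSD17B1TG mouse and 5.096 in the highest WT mouse. *Aspn* to *Bgn* overlapped through WT4, with 1.17 to 4.02 in HSD17B1TG and 0.0484 to 1.21 in WT.

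Markers of the cell types of the uterine wall also differed between mice, and in whole tissue fewer cells of a type and less RNA per cell cannot be told apart. The summed FPKM of 12 stromal markers was 177 to 595 in HSD17B1TG and 401 to 1338 in WT, with 3 HSD17B1TG mice below every WT mouse. All 12 had negative fold changes and 6 were called down, against 4.24% of all genes called in either direction. These 6 were *Pdgfra*, *Thy1*, *Hand2*, *Hoxa10*, *Hoxa11* and *Twist2*. With each mouse left out in turn, *Hand2* stayed called in 9 of 10 fits and *Pdgfra* in 7, and the other 4 in 2 to 4. Calls over all genes also fell in most of these fits, down to 38 up and 27 down without TG5. *Dpt* and *Vim*, the most abundant of them, had 170.9 ± 106 and 63.0 ± 34.6 FPKM in HSD17B1TG and 328.0 ± 167 and 162.3 ± 98.3 in WT (adjusted p = 0.228 and 0.102 in edgeR). The summed FPKM of 11 smooth muscle markers was 924 to 7703 in HSD17B1TG and 452 to 6015 in WT, and all 11 fold changes were positive with 0 called and 0 at an unadjusted p under 0.05. Their most abundant genes, *Acta2* and *Actg2*, had 1467 ± 1209 and 468.1 ± 371 FPKM in HSD17B1TG and 911.2 ± 981 and 424.4 ± 531 in WT (adjusted p = 0.602 and 0.935). The sum was highest in TG1 (7703), WT4 (6015) and TG4 (3261), the mice that had the highest *Aspn*, *Ogn* and *Lum* levels.

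The markers of the other cell types were as follows. For 10 epithelial markers the sum was 645 to 2986 FPKM in HSD17B1TG and 476 to 1595 in WT, with 4 HSD17B1TG mice above every WT mouse. No epithelial marker was called in edgeR, but 9 of the 10 had positive fold changes, 7 of them with an unadjusted p under 0.05. The median log2 fold change was 1.22. For this and the other marker lists, the shares over all genes tested were 26.1% at an unadjusted p under 0.05 and 4.24% called. *Krt19* and *Krt8*, keratins of simple epithelium, had 509.0 ± 212 and 464.7 ± 210 FPKM in HSD17B1TG and 186.6 ± 169 and 197.4 ± 128 in WT (adjusted p = 0.156 and 0.146). For 4 mesothelial markers, which tell of the outer lining of the uterus, the sum was 12.7 to 61.7 and 0.571 to 23.6, with 3 HSD17B1TG mice above every WT mouse. This sum was highest in TG4 (61.7) and TG1 (45.6), which were also the 2 highest mice for *Aspn*, *Podn* and *Prelp*. It was lowest in WT3 (0.571), the lowest mouse for *Aspn* and *Podn*. All 4 markers had positive fold changes, 2 had an unadjusted p under 0.05 and 0 were called, and the median was 1.47. *Msln* and *Upk3b* had 17.9 ± 9.48 and 11.4 ± 6.87 FPKM in HSD17B1TG and 4.72 ± 3.78 and 4.00 ± 3.13 in WT (adjusted p = 0.119 and 0.269). The sum of 8 endothelial markers was 22.7 to 91.1 and 55.9 to 131.6, with 3 HSD17B1TG mice below every WT mouse. Of these markers 7 had negative fold changes, 3 had an unadjusted p under 0.05 and 0 were called, and the median was -0.65. *Pecam1* and *Egfl7* had 12.9 ± 7.61 and 12.1 ± 6.04 FPKM in HSD17B1TG and 18.9 ± 7.92 and 19.4 ± 6.19 in WT (adjusted p = 0.455 and 0.258). The sum of 8 leucocyte markers was 76.6 to 98.6 and 59.5 to 127.8, where no HSD17B1TG mouse lay outside the WT range. Of the leucocyte markers *Laptm5* was called up, with 39.6 ± 10.7 FPKM in HSD17B1TG and 16.2 ± 5.50 in WT (adjusted p = 0.0312), a call kept in 4 of 10 fits with a mouse left out, while the other 7 had negative fold changes and the median was -0.50. *Ptprc*, *Cd52* and *Coro1a* were among these 7 and had an unadjusted p under 0.05 in edgeR without being called, and *Tyrobp*, the next in abundance to *Laptm5*, had 20.5 ± 5.69 and 29.95 ± 9.54 FPKM (adjusted p = 0.249). No marker of these lists was at 0 in all mice.

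The levels were also set relative to the stromal and the smooth muscle marker sums. They were not set relative to the sums of the other cell types, among them the mesothelial sum, which was highest in the mice with the most *Aspn*. Per 100 FPKM of smooth muscle markers, *Aspn* had 1.24 to 4.62 FPKM in HSD17B1TG and 0.617 to 1.45 in WT, with 4 of 5 HSD17B1TG mice above every WT mouse. Per 100 FPKM of stromal markers it had 11.6 to 31.5 in HSD17B1TG and 0.218 to 13.9 in WT, again with 4 of 5 above. *Podn* and *Prelp* likewise had 4 of 5 HSD17B1TG mice above every WT mouse per stromal marker, with 0.421 to 1.03 against 0.0111 to 0.515 and 3.44 to 9.45 against 0.212 to 3.79, but 3 HSD17B1TG mice had stromal sums below every WT mouse. Per 100 FPKM of smooth muscle markers *Podn* had 0.0402 to 0.164 against 0.0321 to 0.119, with 1 of 5 HSD17B1TG mice above every WT mouse. *Prelp* had 0.328 to 1.39 against 0.252 to 0.611 on that scale, with 2 of 5 above. *Bgn* had 5.68 to 9.86 FPKM per 100 FPKM of stromal markers in HSD17B1TG and 4.37 to 11.5 in WT, with no HSD17B1TG mouse outside the WT range. Per 100 FPKM of smooth muscle markers it had 0.602 to 1.43 against 0.767 to 13.01, with 2 of 5 HSD17B1TG mice below every WT mouse. The part of the tissue make-up in the differences of the members was not tested.

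**Figure D4:**
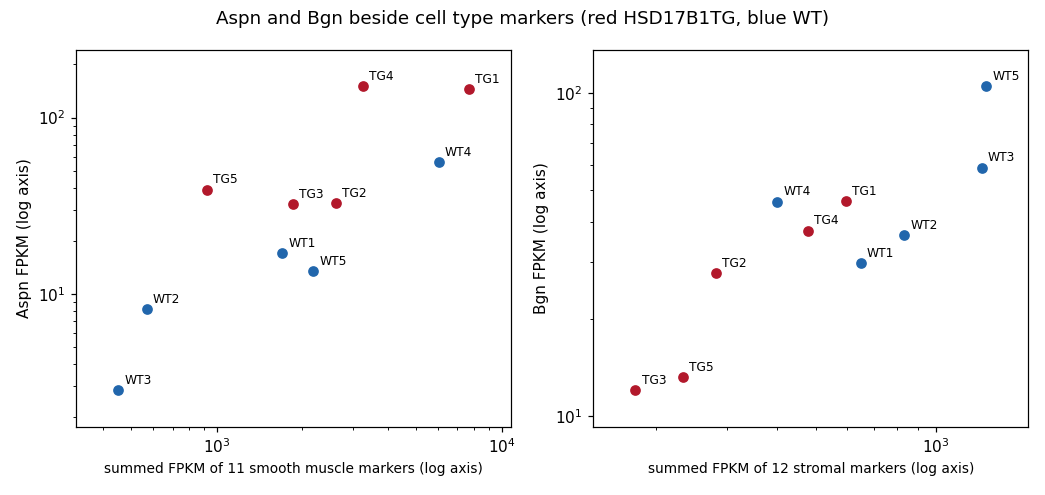
FPKM of *Aspn* against the summed FPKM of smooth muscle markers (left) and of *Bgn* against that of stromal markers (right), all on log axes, 1 point per mouse, HSD17B1TG in red and WT in blue. Per 100 FPKM of smooth muscle markers, *Aspn* has 1.24 to 4.62 FPKM in HSD17B1TG and 0.617 to 1.45 in WT, so the groups overlap. For *Bgn* the 3 mice with the lowest stromal sums, TG3, TG5 and TG2, also have the lowest *Bgn* levels. Within WT the order differs, as WT4 has the lowest stromal sum but more *Bgn* (46.1 FPKM) than WT1 (29.7) and WT2 (36.4).

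Some other genes of the family were also expressed in this tissue. Of 9 further members, *Kera*, *Epyc* and *Nyx* had too few counts to be tested, with at most 14 in any mouse. Of the 6 tested, *Tsku*, which encodes tsukushi, a class IV protein that binds several growth factors, fell from 9.95 ± 6.05 to 2.72 ± 0.637 FPKM (log2 fold change -1.88, SE 0.45, adjusted p = 0.0390 in edgeR). *Optc*, a class III gene close to *Prelp*, had 13.03 ± 10.1 FPKM in HSD17B1TG and 4.46 ± 4.86 in WT (adjusted p = 0.229). Of these 6 genes 1 was called, against 4.24% of all genes. The median of the 6 log2 fold changes was -0.16, with 3 positive and 3 negative.

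The enzymes that build and sulfate the chains of these proteoglycans included some of the clearer differences. Of 22 chondroitin and dermatan sulfate enzymes, 1 was called up and 2 down, against 4.24% of all genes tested called in either direction. There were 7 positive and 15 negative fold changes, with a median log2 fold change of -0.20. *Chsy1*, a chondroitin synthase that lengthens the chains, fell from 53.1 ± 15.0 to 11.1 ± 4.00 FPKM (log2 fold change -2.27, SE 0.29, adjusted p = 0.0149 in edgeR), and every HSD17B1TG mouse lay below every WT mouse. *Dse*, the epimerase that turns chondroitin into dermatan sulfate, fell from 8.67 ± 0.786 to 4.03 ± 1.64 FPKM (adjusted p = 0.0388), and *Chst7*, a chondroitin sulfotransferase, rose from 3.18 ± 1.43 to 12.4 ± 6.67 FPKM (adjusted p = 0.0339). *B3gat3*, which completes the linker of the chains to the core protein, had 54.0 ± 11.7 FPKM in HSD17B1TG and 36.4 ± 2.63 in WT and missed the fold threshold with an adjusted p of 0.0494. Of 9 genes of keratan sulfate and tyrosine sulfation, 1 was called, against the same 4.24% of all genes. The 1 called was *Chst2*, a sulfotransferase of keratan sulfate, which fell from 2.75 ± 1.75 to 0.807 ± 0.298 FPKM (adjusted p = 0.0375). The galactosyltransferase *B4galt1* and the tyrosine sulfotransferase *Tpst1*, the most abundant of these, had 39.0 ± 5.23 and 15.9 ± 8.79 FPKM in HSD17B1TG and 41.6 ± 6.37 and 29.5 ± 7.27 in WT (adjusted p = 0.724 and 0.115).

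The collagens, to many of which the members bind, had mostly negative fold changes. Of 13 tested, 2 were called down and 0 up, against 4.24% of all genes called in either direction. Fold changes were negative for 11, and 8 of these had an unadjusted p under 0.05, against 26.1% of all genes. The median log2 fold change was -1.05, against 0.00 over all genes. *Col3a1*, the collagen of thin reticular fibrils, fell from 511.6 ± 96.1 to 187.5 ± 104 FPKM (adjusted p = 0.0445 in edgeR), and *Col11a1*, which starts fibrils, from 1.46 ± 1.10 to 0.0962 ± 0.117 (adjusted p = 0.0467). *Col1a1*, the main fibrillar collagen, had 311.0 ± 151 FPKM in HSD17B1TG and 700.0 ± 27.5 in WT (adjusted p = 0.0671), and its groups did not overlap. *Col6a1*, of beaded filaments, had 319.7 ± 184 and 577.1 ± 191 (adjusted p = 0.206). Among 8 genes of collagen cross-linking 0 were called, with 7 negative fold changes. Of these, 3 had an unadjusted p under 0.05, against 26.1% of all genes tested. *Plod1*, a lysyl hydroxylase, had 15.0 ± 3.05 FPKM in HSD17B1TG and 26.1 ± 4.32 in WT without overlap between the groups, and missed only the fold threshold (0.571-fold, adjusted p = 0.0299). The lysyl oxidases *Lox*, whose action some members guide, and *Loxl1* had 34.1 ± 19.1 and 22.5 ± 14.4 FPKM in HSD17B1TG and 46.4 ± 18.7 and 43.9 ± 14.7 in WT (adjusted p = 0.508 and 0.167). Among 4 genes of the propeptide proteinases that trim collagens and some of the proteoglycans, 0 were called, and *Bmp1* and its enhancer *Pcolce* had 17.7 ± 8.14 and 11.3 ± 6.58 FPKM in HSD17B1TG and 28.5 ± 7.24 and 26.0 ± 16.4 in WT (adjusted p = 0.196 and 0.167).

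Partners at the cell surface and in signalling were mixed. Of 14 receptor genes, 1 was called up and 1 down, against 4.24% of all genes called in either direction. There were 9 positive and 5 negative fold changes, with a median of 0.42. *Tlr2*, a toll-like receptor for which soluble biglycan is a ligand, rose from 4.93 ± 2.39 to 15.1 ± 4.84 FPKM (log2 fold change 1.61, SE 0.34, adjusted p = 0.0306 in edgeR), without overlap between the groups, and *Cd44* fell from 10.9 ± 3.98 to 5.06 ± 0.994 (adjusted p = 0.0414). *P2rx7*, a purinergic receptor, had 11.8 ± 2.03 FPKM in HSD17B1TG and 5.98 ± 1.97 in WT without overlap, and missed only the fold threshold (1.97-fold, adjusted p = 0.0338). The most abundant receptor genes, the integrin *Itgb1* and *Cd14*, a co-receptor of toll-like receptors, had 149.6 ± 41.3 and 95.2 ± 65.8 FPKM in HSD17B1TG and 128.2 ± 24.2 and 37.0 ± 16.7 in WT (adjusted p = 0.548 and 0.114). Of 8 growth factors that members bind, 0 were called, with a median of -0.05, and *Ctgf* and *Bmp4* had 14.6 ± 8.84 and 16.9 ± 13.5 FPKM in HSD17B1TG and 10.8 ± 10.6 and 7.86 ± 1.76 in WT (adjusted p = 0.684 and 0.165). Of 11 proteases that can cleave members, 1 was called, against 4.24% of all genes, and the median was -0.95. The 1 called was *Gzmb*, a granzyme of cytotoxic lymphocytes, which fell from 19.8 ± 18.7 to 0.930 ± 1.16 FPKM (adjusted p = 0.0471). *Mmp12*, a macrophage elastase, had 0.494 ± 0.192 FPKM in HSD17B1TG and 0.0534 ± 0.0522 in WT without overlap (adjusted p = 0.0328), and missed only the FPKM threshold. *Mmp2* and *Mmp14*, the most abundant, had 73.0 ± 47.1 and 86.1 ± 37.1 FPKM in HSD17B1TG and 143.5 ± 61.4 and 63.2 ± 7.49 in WT (adjusted p = 0.217 and 0.319). Of the calls in the family, its enzymes, collagens, receptors and proteases, that of *Chsy1* held in all 10 fits that left out 1 mouse. Those of *Tsku*, *Dse*, *Chst7*, *Chst2*, *Col3a1*, *Col11a1*, *Tlr2*, *Cd44* and *Gzmb* held in only 2 or 3 of the 10. They were lost among others without TG2, TG4, TG5, WT1, WT2, WT3 or WT5. In the fits named, calls over all genes fell as well, from 367 up and 354 down to at most 100 up and 145 down. The losses are thus not particular to these genes.

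**Figure D5:**
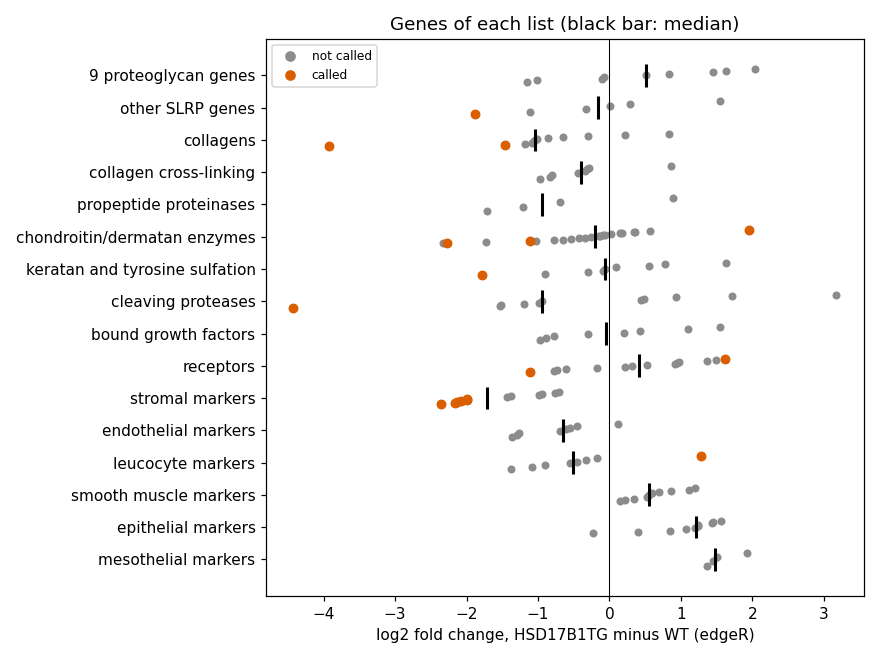
Log2 fold change in edgeR, HSD17B1TG minus WT, of every tested gene of each list, 1 point per gene, with called genes in orange and a black bar at the median. The 9 proteoglycan genes have a median of 0.51 and 0 called, the 13 collagens a median of -1.05 and 2 called, and the 12 stromal markers a median of -1.72 and 6 called. Over all genes tested 4.24% were called.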

How the data were processed

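The authors mapped paired-end NovaSeq reads of each uterus with HISAT2 2.0.5 to the mouse genome (GRCm38, Ensembl annotation). The program and strand setting that gave the gene counts are not given in the sources used here. The deposited table gives for every gene and mouse the raw count, a signal that is the count divided by the authors' DESeq2 size factor of the mouse, FPKM that the authors scaled by the same size factor and by the gene length in the table, and the authors' own log2 fold change and p-value columns for the genotype comparison. Counts and FPKM were used. The authors' comparison columns, a shorter table of their differential genes and their GO and KEGG tables were not used.

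The genotype label set the groups. The main test was that of edgeR 4.0.16 under R 4.3.3 (filterByExpr, TMM, quasi-likelihood test, Benjamini-Hochberg adjustment over 16993 genes). Standard errors are the log2 fold change over the square root of F. A count of 3 in the smallest library, 0.202 CPM, was taken as the floor, which covers counting error only. The labels give no batch, litter or date. With 5 mice against 5 the exact permutation test, two-sided over 252 assignments on log2 CPM (prior count 2), cannot go below p = 0.00794. The edgeR, DESeq2 and voom fits were tested on simulated counts with known changed genes. The alternatives were DESeq2 1.42.0, limma 3.58.1 with voom weights or on log2(FPKM + 1), other normalizations, filters and thresholds, and each mouse left out.

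The members and the gene lists, written by hand from general knowledge, were chosen with earlier results of these data known. The genes named are the 9 members, mouse *Hsd17b1*, the 2 tested genes with the highest mean FPKM of each list and the 5 genes most like the mean of the members. Untested family members and genes that overlap a member were named too. Genes named because they were called or passed the adjusted p alone, or that had an unadjusted p under 0.05, and the pair ratios and the levels per marker, were chosen after values were seen. Gene positions are those of the table, checked against GENCODE M21 of the same build, and promoters are from RefSeq.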

Additional observations from a re-analysis of the deposited data

Results flagged for a closer look

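*Aspn* in WT4, at 55.9 FPKM, stood apart from the other WT mice, which lay between 2.84 and 17.1 FPKM. Its gap to the nearest mouse was 0.730 of the range of the WT group in FPKM, above Dixon's critical value of 0.71 for 5 values. On log2 CPM, WT4 had 7.04 and the other WT mice 2.79 to 5.34, a gap smaller than the spread of those others. The flag thus holds for the FPKM scale. *Aspn* in WT4 was the 1 value so found in 18 groups examined (9 genes in 2 genotypes). Chance alone marks about 1 group in 20 where values are normally distributed, which FPKM need not be. WT4 also had the highest smooth muscle marker sum (6015 FPKM) and the lowest stromal marker sum (401 FPKM) of the WT mice, and their part in the *Aspn* level was not tested. Without WT4 the log2 fold change of *Aspn* was 2.93 (adjusted p = 0.0241 in edgeR), against 2.04 (adjusted p = 0.124) with it.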

How the results depend on the processing

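The count of members called was 0 in edgeR and became 1, *Aspn*, in DESeq2 and 1 in limma's voom with quality weights. It ranged from 0 to 1 when each mouse was left out, the 1 being *Aspn* without WT4. It stayed at 0 under the other normalizations, filters and thresholds and in limma on log2(FPKM + 1). *Aspn*, *Podn*, *Prelp*, *Ogn*, *Bgn* and *Fmod* kept their sign in all 18 other fits. The sign of *Lum* turned without TG1, with leave-one-out values from -0.027 to 0.72. *Omd* was 0.010 on log2(FPKM + 1), with leave-one-out values from -0.41 to 0.27, and *Dcn* ranged from -0.33 to 0.086. Library totals alone moved the median of all genes to -0.17. Over the fits, calls ranged from 0 to 7 of the collagens (2 in the main test), 0 to 8 of the stromal markers (6), 0 to 6 of the epithelial markers (0), 0 to 5 of the receptors (2), 0 to 4 of the cleaving proteases (1) and of the leucocyte markers (1), 0 to 3 of the keratan sulfate genes (1) and of the mesothelial markers (0), 1 to 3 of the chondroitin enzymes (3), 0 to 2 of the other family members (1), and 0 to 2 of the cross-linking, growth factor and endothelial genes (0). Over all genes the calls ranged from 38 up and 27 down without TG5 to 1083 and 665 in voom. No paired analysis was possible because the labels give animal numbers and no pairs of mice. *Omd* rested on 6 to 70 counts per mouse, the lowest of the 9 genes.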
